A study of Mus musculus with 4 samples.

Results

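The genes described here are the chemokine ligand genes of the mouse, taken as every non-control probe whose gene name in the scanner files is Ccl, Cxcl, Cx3cl or Xcl followed by a number. This rule took 43 of the 41174 probes on the array, which stand for 34 genes. Of these genes, 25 had 1 probe and 9 had 2 probes. The material was CD45-negative cells, the fraction left when leukocytes are depleted, from the mesenteric lymph node (mLN), the node of the gut, and from the peripheral lymph node (pLN). All mice were wild-type C57BL/6NCrl, and no other genotype or treatment is named for either group. Per the labels' protocols the nodes were digested with collagenase and the CD45-negative cells were isolated with magnetic beads, to a stated mean purity of 97.4% ± 2.0 for mLN and 97.5% ± 2.2 for pLN. Each node was sampled in 2 independent experiments, which gave 4 single-colour arrays, 2 per node, on 1 slide. The labels do not say which peripheral nodes were taken, how many animals were pooled or whether different animals served each experiment, so the spread behind the p-values may be technical. The fraction is depleted of leukocytes and not sorted for 1 stromal cell type, and the submitters speak of stem cells in the design and of stromal cells in the title. In bulk samples like these, fewer cells of a type and less RNA per cell cannot be told apart.

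Chemokines are small secreted proteins that bind receptors on leukocytes and steer where these cells move. Homeostatic ligands are made without infection: Ccl19 and Ccl21 bring T cells and dendritic cells into the T cell zone through Ccr7, and Cxcl13 brings B cells into follicles through Cxcr5. Inflammatory ligands are switched on by cytokines or microbial products and draw monocytes, neutrophils, eosinophils or effector T cells. In a lymph node the fibroblastic reticular, follicular dendritic and endothelial cells, all of them CD45-negative, are known sources of the homeostatic ligands.

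Values below are log2 of the processed signal of a probe minus log2 of that array's 75th percentile, so that a probe at 0 is as bright as the 75th percentile of its array, and a gene with 2 usable probes is read by the brighter one. For each node the value of experiment 1 is followed by that of experiment 2. The 75th percentile lay between 1686 and 1741 signal units on the 4 arrays, and the share of probes well above background was 74.0% to 81.1%. A gene was tested if its probe stood well above background on each array of 1 node or of both. That held for 32 of the 34 ligand genes and for 21392 of the 27597 genes named on the array. Ccl1 and Ccl22, ligands of Ccr8 and Ccr4, were not well above background on any of the 4 arrays and were not tested. Ptprc, which encodes CD45, was well above background on all arrays, at −1.54 and −1.42 in mLN and −1.32 and −1.77 in pLN. Among the stromal markers Col1a1, a collagen gene, had 5.85 and 5.30 in mLN and 5.45 and 5.51 in pLN, and none of 6 fibroblastic reticular markers passed the test between nodes. The 3 follicular dendritic markers had node differences of 1.30 for Cr2, 0.78 for Sox9 and 0.35 for Fcer2a, and none passed.

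Ranked by mean probe signal, the 4 brightest ligands were all homeostatic and the next 6 were all inflammatory. The order is one of probe signals, which depend on each probe's sequence as well as on the transcript, so it does not rank amounts of RNA. The brightest was the Ccl21c probe, with 7.88 and 8.29 in mLN and 7.51 and 7.94 in pLN, at or above the 99.8th percentile of all probes on every array. The ranges of the 2 nodes overlapped, and the difference of mLN minus pLN was 0.36 ± 0.24 (SE, n = 2 per node). Ccl21 genes are near-identical copies, and the transcripts listed for this probe belong to Ccl21a, Ccl21b and Ccl21c, so its signal is the sum of whatever these copies give. The stretch of the probe shown here, its first 30 bases, lies at the start of the probe on mm8 chromosome 4 at chr4:42016634-42016693, plus strand:
Ccl21c probe: tggttcacggtccaactcacaggcaaagag

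Ccl19, the other ligand of Ccr7, had 7.22 and 8.12 in mLN and 7.26 and 7.85 in pLN, with a node difference of 0.12 ± 0.39. Its second probe gave 0.20. Cxcl13, the follicular B cell attractant, had 6.54 and 6.94 in mLN against 6.85 and 6.75 in pLN, a difference of −0.06 ± 0.19. Cxcl12, which acts through Cxcr4, had 6.17 and 6.82 in mLN against 6.00 and 6.51 in pLN, a difference of 0.24 ± 0.31, and its other probe gave −0.06. For each of these 4 ligands the spread between the experiments within a node was as large as or larger than the difference between nodes, and none passed the test. In array values Ccl21c overlapped with Ccl19 and Cxcl13 with Cxcl12. Ccl19 did not overlap with Cxcl13, nor the brighter Cxcl12 probe with the next gene in the order, Ccl2. The other Cxcl12 probe, at 4.95 and 5.76 in mLN and 5.22 and 5.62 in pLN, did overlap with Ccl2.

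The remaining homeostatic ligands were dimmer. Ccl27, a skin-associated ligand of Ccr10, had −0.55 and −0.38 in mLN and −0.52 and −0.66 in pLN (0.13 ± 0.15). Ccl25, which draws gut-homing cells through Ccr9, had −1.74 and −1.81 in mLN and −1.74 and −1.67 in pLN (−0.07 ± 0.14). Ccl28, a mucosal ligand of Ccr10, had −5.28 and −5.52 in mLN and −4.83 and −5.06 in pLN (−0.46 ± 0.17, limma adjusted p = 0.35). The ligands known for guiding cells to the gut were thus not called in either direction between the gut-draining node and pLN. For Ccl28 the mLN arrays lay below both pLN arrays, and the sign of this dim probe turned with the background correction.

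**Figure D1:**
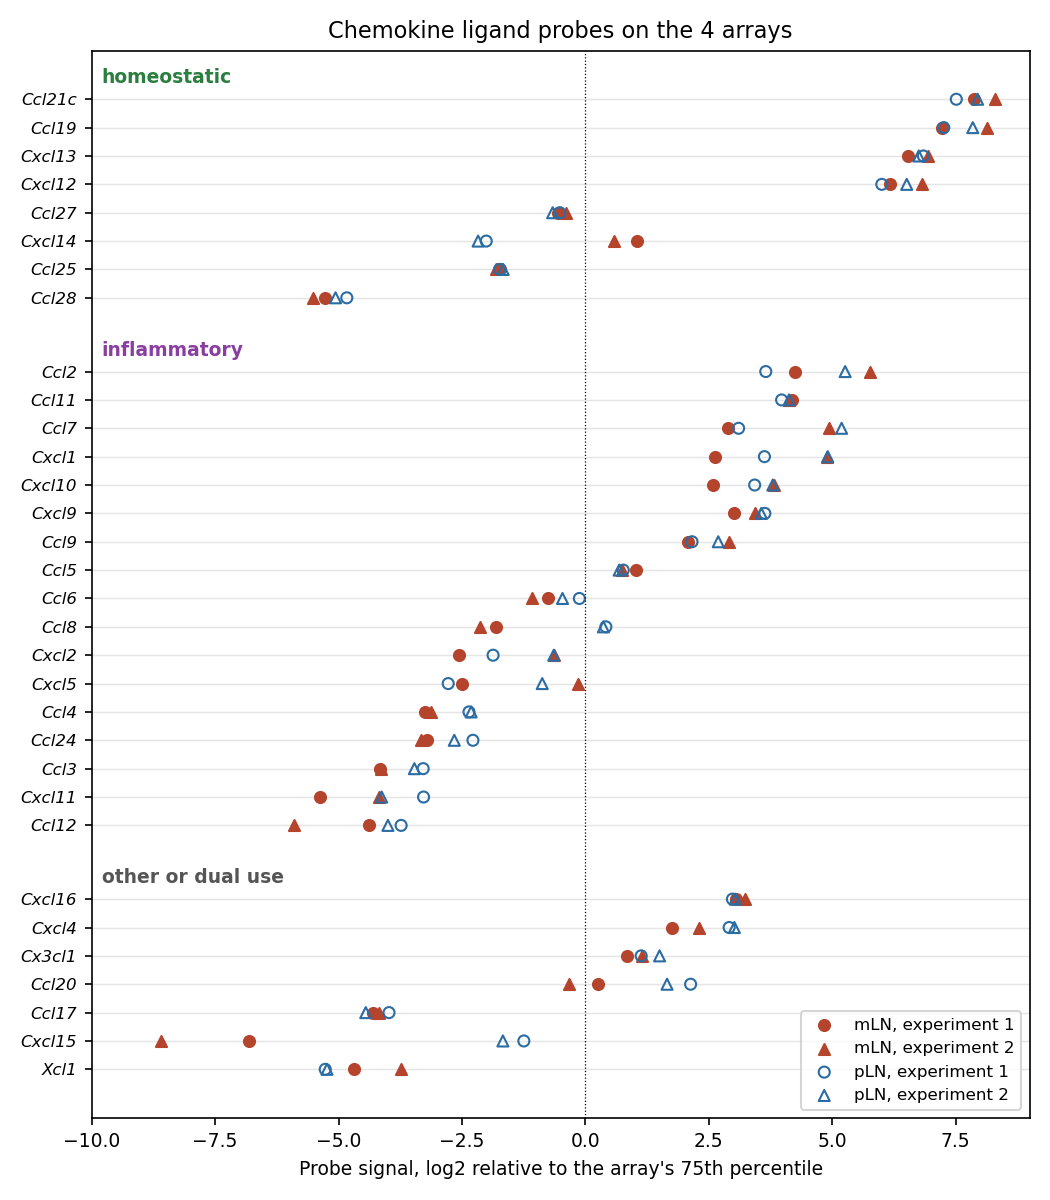
Probe signal of the 32 tested chemokine ligand genes on each array, in log2 relative to the array's 75th percentile, grouped by list and ordered by mean. Filled red symbols are mLN and open blue symbols are pLN, with circles for experiment 1 and triangles for experiment 2. The probes drawn for Ccl21c, Ccl19, Cxcl13 and Cxcl12, the brighter one where there are 2, lie at 6.00 or above. Cxcl14, Ccl8, Ccl20 and Cxcl15 show the widest gaps between nodes.

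Between nodes, 3 of the 32 ligands had a limma adjusted p at or under 0.05 (Benjamini-Hochberg over all 21392 genes), against 225 of all genes, or 1.05%. One ligand, Cxcl14, was higher in mLN (0.776% of all genes were called higher), and Ccl8 and Cxcl15 were lower (0.276% of all genes were called lower). Of these, Cxcl15 passed the filter on dim probes through the pLN arrays alone. The median ligand had a difference of −0.28, against −0.033 over all genes tested. It was −0.32 in experiment 1 and −0.0046 in experiment 2, and 0.052 without mLN replicate 1. A ratio past 2-fold in the same direction in each experiment, a rule without a test, took these 3 genes and Ccl20, which is 1 ligand higher and 3 lower. Over all genes that rule took 4.45%, of which 2.75% were higher and 1.71% lower. The mLN arrays lay above both pLN arrays for 4 ligands and below both for 12, where 20.6% and 25.0% of all genes did so. No ligand was called with either pLN array left out, without the filter on dim probes, or with normexp background correction as planned, and without either pLN array the count over all genes was 0 too.

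Cxcl14, a homeostatic chemokine made by fibroblasts and epithelia, was the only one of 8 homeostatic ligands called. It had 1.05 and 0.58 in mLN, against −2.01 and −2.17 in pLN. The nodes did not overlap, and the gap between them was several times the spread within either. Its signal was 7.49-fold higher in mLN, a log2 difference of 2.91 with an SE of 0.21 over 2 arrays per node (limma adjusted p = 0.019), with 8.31-fold in experiment 1 and 6.76-fold in experiment 2. With 1 array left out the difference ranged between 2.67 and 3.14. The gene has 1 probe, on mm8 chromosome 13 at chr13:56298339-56298398, minus strand, and its first 30 bases identify what was measured:
Cxcl14 probe: cctcattagaggccgcactgtatggctgtg

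Markers of other cells moved in the same direction as Cxcl14. Of 7 mesothelial markers, 6 were called higher in mLN, and their summed signal relative to the 75th percentile was 40.4 and 30.0 in mLN, against 3.45 and 4.89 in pLN. Wt1 and Bnc1, both among those called, did not clear background on either pLN array. Lrrn4 and Upk1b, also called, cleared it on only 1 pLN array. All of these entered the test through the mLN arrays alone, where they were bright. All 6 pancreatic acinar markers exceeded 2-fold in the direction of mLN in each experiment, though only Amy2a5 passed the test, with summed signals of 611 and 225 in mLN and 13.0 and 0.304 in pLN. Amy2a5 did not clear background on either pLN array, so it too entered through the mLN arrays alone. The part of these mesothelial and acinar markers in the Cxcl14 difference was not tested.

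Ccl8, which in the mouse acts through Ccr8, was the only one of 17 inflammatory ligands called. It had −1.82 and −2.13 in mLN, against 0.41 and 0.36 in pLN, with no overlap. Its signal was 5.15-fold lower in mLN, a log2 difference of −2.36 ± 0.17 over 2 arrays per node (limma adjusted p = 0.0185), with 4.70-fold in experiment 1 and 5.64-fold in experiment 2. The difference ranged between −2.52 and −2.21 with 1 array left out. Ccl8 has a near relative next to it, Ccl12, a mouse ligand of Ccr2, so the 2 probes were compared. They share a run of 13 bases, the longest among 894 pairs of probes for different ligand genes, and no other pair shared more than 11. The stretches that hold the run are printed with it in capitals, from bases 1 to 30 of the Ccl12 probe (chr11:81919403-81919462, plus strand, mm8) and bases 16 to 45 of the Ccl8 probe (chr11:81932801-81932860, plus strand, mm8):
Ccl8 probe: ttctgcagCCTTGAACCTTCAcacctgagt
Ccl12 probe: tCCTTGAACCTTCAtgtctaggctgagagt

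Ccl12 had a smaller difference in the same direction. Its values were −4.39 and −5.89 in mLN and −3.73 and −4.00 in pLN, a difference of −1.27 ± 0.53 that did not pass (limma adjusted p = 0.397). The mLN arrays again lay below both pLN arrays, but the spread within mLN exceeded the distance between the nearest arrays of the 2 nodes.

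Cxcl15, a mouse CXC ligand known from lung epithelium that attracts neutrophils, had the largest difference of any ligand tested. Its values were −6.81 and −8.60 in mLN, against −1.25 and −1.67 in pLN. The probe was well above background on 1 of the 2 mLN arrays and on both pLN arrays, so the mLN level is close to what the array can resolve. Cxcl15 therefore entered the test through the pLN arrays alone, where it was brighter. With the mLN signal raised to the detection limit where it lay below it, Cxcl15 was at least 36.8-fold lower in mLN under the main processing (fitted log2 difference −6.25 ± 0.63, limma adjusted p = 0.0425). Other background corrections gave smaller differences, so the bound does not hold across them. The fitted difference was −7.14 without mLN replicate 1 and −5.36 without mLN replicate 2, and with 2 forms of normexp background correction it was −1.41 and −2.91. The second probe of the gene had −9.23 and −8.51 in mLN, neither well above background, and −3.72 and −5.16 in pLN. Both probes lay on the plus strand of mm8 chromosome 5, the first spread over chr5:91870518-91873191, a span longer than the probe itself, and the second at chr5:91878122-91878181. The first 30 bases of each are shown, since the 2 probes gave the same direction from different sequence:
Cxcl15 probe 1: aaggaagtgatagcagtcccaaaaaatggg
Cxcl15 probe 2: agttttgaaagaggtgttactgatcatgtt

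Some epithelial markers had the direction of Cxcl15. Of 6 markers of surface and glandular epithelium, Csn3, a milk casein gene, and Wfdc2 were called lower in mLN, at −6.91 ± 0.57 and −4.56 ± 0.28. The remaining 4 were not called: Elf5 had −4.30 ± 0.59, Epcam −2.10 ± 0.34, Krt18 −0.57 ± 0.34 and Krt8 0.22 ± 0.25. The list's summed signal was 7.29 and 4.91 in mLN, against 11.7 and 19.0 in pLN, and Elf5, which encodes a transcription factor of glandular epithelium, did not clear background in mLN. Their part in the differences of Cxcl15, Ccl8 and Ccl20 was not tested.

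Ccl20, the ligand of Ccr6 that draws B cells and dendritic cell precursors to mucosal epithelium, lay just outside the threshold. It had 0.25 and −0.33 in mLN, against 2.13 and 1.65 in pLN. The nodes did not overlap, and both were lower in experiment 2. The difference was −1.93 ± 0.29, or 3.82-fold (limma adjusted p = 0.0895). With the experiment as a replicate block the adjusted p was 0.0315, and Ccl20 then passed. The Ccr6 probe itself had −1.55 and −1.78 in mLN and −0.63 and −0.94 in pLN (−0.88 ± 0.19, adjusted p = 0.145).

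**Figure D2:**
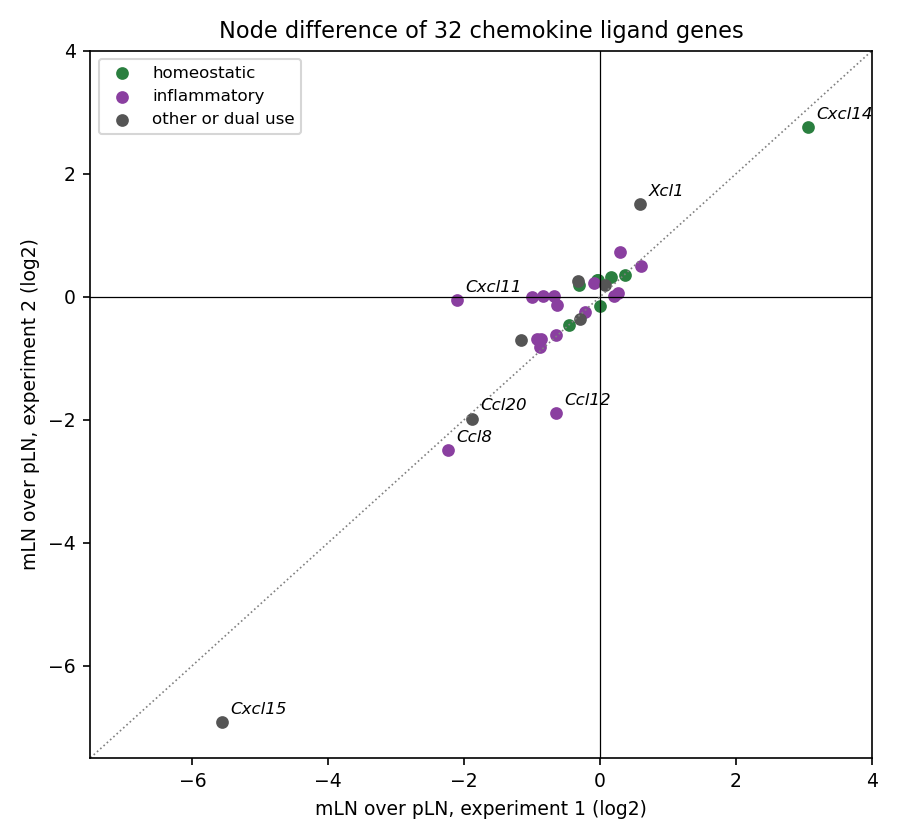
Log2 ratio of mLN over pLN for each of the 32 ligands, experiment 1 on the horizontal axis and experiment 2 on the vertical axis, 1 array per node behind each ratio. Points on the dotted diagonal had the same ratio in both experiments. Cxcl14 lies alone at the upper right, Ccl8, Ccl20 and Cxcl15 lie at the lower left, and Cxcl11 and Ccl12 each have a large ratio in 1 experiment.

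Set against each other, the homeostatic list had a median difference of 0.12 and the inflammatory list one of −0.41. Of 8 homeostatic ligands 5 had a positive difference, and 1 was called, higher. Of 17 inflammatory ligands 12 had a negative difference, and 1 was called, lower. Over all 21392 genes tested, 9478 had a positive difference and 11914 a negative one. The gap between the lists was not the same in both experiments: in experiment 1 the homeostatic median was −0.012 and the inflammatory one −0.65, and in experiment 2 the homeostatic median was 0.28 and the inflammatory one −0.054. Without mLN replicate 1 the inflammatory median was 0.025 and the homeostatic one 0.38. The remaining 7 tested ligands, which fit neither list or both, had a median of −0.33, which was −0.18 without mLN replicate 1, −0.51 without pLN replicate 1 and −0.73 with the probes of a gene averaged.

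Of the monocyte attractants that act through Ccr2, neither Ccl2 nor Ccl7 passed between nodes. Ccl2 had 4.25 and 5.76 in mLN and 3.65 and 5.26 in pLN, a difference of 0.55 ± 0.76. Ccl7 had 2.89 and 4.94 in mLN and 3.103 and 5.19 in pLN (−0.23 ± 1.00), and its second probe gave −0.18. In both genes the arrays paired by experiment and not by node, and these SEs hold the difference between experiments. Within experiments Ccl2 was higher in mLN both times, by 0.60 and 0.50, and Ccl7 lower both times, at −0.22 and −0.25. With the experiment as a replicate block the adjusted p was 0.194 for Ccl2 and 0.522 for Ccl7, so that neither passed there. The Ccl2 probe was spotted 10 times on each array, and the spots within an array had an SD of 0.042 to 0.069 on the log2 scale, far under the difference between arrays.

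The neutrophil attractants that act through Cxcr2 also paired by experiment. Cxcl1 had 2.62 and 4.90 in mLN and 3.63 and 4.91 in pLN (−0.51 ± 0.89). Cxcl2 had −2.55 and −0.63 in mLN and −1.87 and −0.64 in pLN (−0.34 ± 0.78). Cxcl5 had −2.49 and −0.14 in mLN and −2.78 and −0.87 in pLN (0.51 ± 1.03). None passed between nodes, and in each the 2 arrays of experiment 2 were the higher ones.

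Ligands of Cxcr3, which interferon induces and which draw effector T cells, were bright for 2 members and dim for the third. Cxcl10 had 2.59 and 3.81 in mLN and 3.43 and 3.80 in pLN, a difference of −0.41 ± 0.45. Cxcl9 had 3.0 and 3.43 in mLN and 3.63 and 3.56 in pLN (−0.39 ± 0.20). Cxcl11 had −5.38 and −4.18 in mLN and −3.28 and −4.13 in pLN (−1.08 ± 0.52, adjusted p = 0.456), with a 4.31-fold ratio in experiment 1 and 1.04-fold in experiment 2. The Cxcl11 difference therefore came from 1 of the experiments.

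Of the eotaxins, which draw eosinophils through Ccr3, Ccl11 had 4.18 and 4.13 in mLN and 3.97 and 4.13 in pLN, the steadiest of the 10 brightest ligands (0.11 ± 0.14). Ccl24 was dimmer, and its 2 probes gave −0.80 ± 0.19 (adjusted p = 0.173) and −0.72. The macrophage inflammatory ligands and their neighbours split. Ccl3 and Ccl4 had differences of −0.78 ± 0.15 and −0.85 ± 0.14 (adjusted p = 0.126 and 0.103), and Ccl6 had −0.63 ± 0.21 (0.288). Ccl5 had 0.16 ± 0.16 and Ccl9 had 0.07 ± 0.36. The mLN arrays lay below both pLN arrays for Ccl3, Ccl4 and Ccl6, without passing the test, and overlapped with them for Ccl5 and Ccl9. Over all genes tested, 25.0% had the mLN arrays below both pLN arrays.

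Among the ligands on neither list, Cxcl4, the platelet factor also named Pf4, had a difference of −0.94 ± 0.23 (adjusted p = 0.19), and Xcl1, made by T and natural killer cells, had one of 1.05 ± 0.35 (0.293). Cx3cl1 and Cxcl16, ligands tethered to the cell membrane, had −0.33 ± 0.21 and 0.13 ± 0.15. The 2 probes of Cx3cl1 gave −0.33 and −1.14, so its size depends on the probe. Ccl17, a ligand of Ccr4, had −0.03 ± 0.21. None of these 5 passed.

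Residual leukocyte markers were measured beside these ligands. The neutrophil genes S100a8 and S100a9 had differences of −2.38 ± 0.51 and −2.46 ± 0.57 (adjusted p = 0.15 and 0.168), with a summed signal of 1.503 and 0.763 in mLN, against 8.97 and 3.76 in pLN, while Ly6g was not tested. None of 8 myeloid markers passed, and their sum was 11.3 and 9.95 in mLN and 15.5 and 11.3 in pLN. The 4 T cell markers summed to 2.41 and 2.53 in mLN and 2.74 and 2.53 in pLN, and none passed. The part of such cells in the differences of Ccl8, Ccl20, Ccl3, Ccl4, Ccl6, Cxcl4 and Xcl1 was not tested.

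Several inflammatory ligands shared a shift between the experiments. Ccl2, Ccl7, Cxcl1, Cxcl2 and Cxcl5 were at least 2-fold higher in experiment 2 than in experiment 1 in both nodes, which is 5 of 32 ligands, and the same rule took 46 of 21392 genes, or 0.215%. No ligand was 2-fold lower in experiment 2 in both nodes, where 0.608% of all genes were, which makes 0.823% of genes in either direction. Limma, with the node as a covariate, called no gene of any kind between experiments (0 of 21392), so that these differences are values and not calls. At an unadjusted p below 0.05 there were 12 ligands and 1947 genes, or 9.1% of all.

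Ccl7 was 4.15-fold higher in experiment 2 in mLN and 4.25-fold higher in pLN, and Ccl2 was 2.85-fold and 3.05-fold higher. For these 2 ligands of Ccr2 the size of the shift was nearly equal in both nodes. Cxcl5 was 5.10-fold higher in mLN and 3.74-fold in pLN, Cxcl1 4.83-fold and 2.43-fold, and Cxcl2 3.78-fold and 2.34-fold. For the ligands of Cxcr2 the shift was larger in mLN, on 1 array per node and experiment, and that difference was not tested. In the fit over both nodes the shifts were 2.07 ± 0.14 for Ccl7, 1.56 ± 0.15 for Ccl2, 2.13 ± 0.18 for Cxcl5, 1.78 ± 0.30 for Cxcl1 and 1.57 ± 0.23 for Cxcl2 (limma adjusted p = 0.493 for each).

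Other ligands had smaller shifts. Both arrays of experiment 2 lay above both of experiment 1 for 11 ligands and below for 1, where 17.4% and 14.3% of all genes did so. The 11 were these 5 and 6 others, which were under 2-fold in the fit over both nodes. Of the inflammatory ligands these were Cxcl10, at 0.80 ± 0.27 (2.34-fold higher in mLN and 1.29-fold in pLN), and Ccl9, at 0.69 ± 0.16. The homeostatic ones were Ccl19, at 0.75 ± 0.17, Cxcl12, at 0.58 ± 0.15, and Ccl21c, at 0.42 ± 0.14, and the last was Cx3cl1, at 0.34 ± 0.14. Cxcl13 had 0.15 ± 0.19, Ccl11 had 0.05 ± 0.15 and Ccl25 had 0.00 ± 0.15. The median over homeostatic ligands was 0.082 and over inflammatory ligands 0.18, against 0.0015 over all genes. The labels number the experiments and do not say in what they differed, so what set the arrays of experiment 2 apart cannot be told from them.

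**Figure D3:**
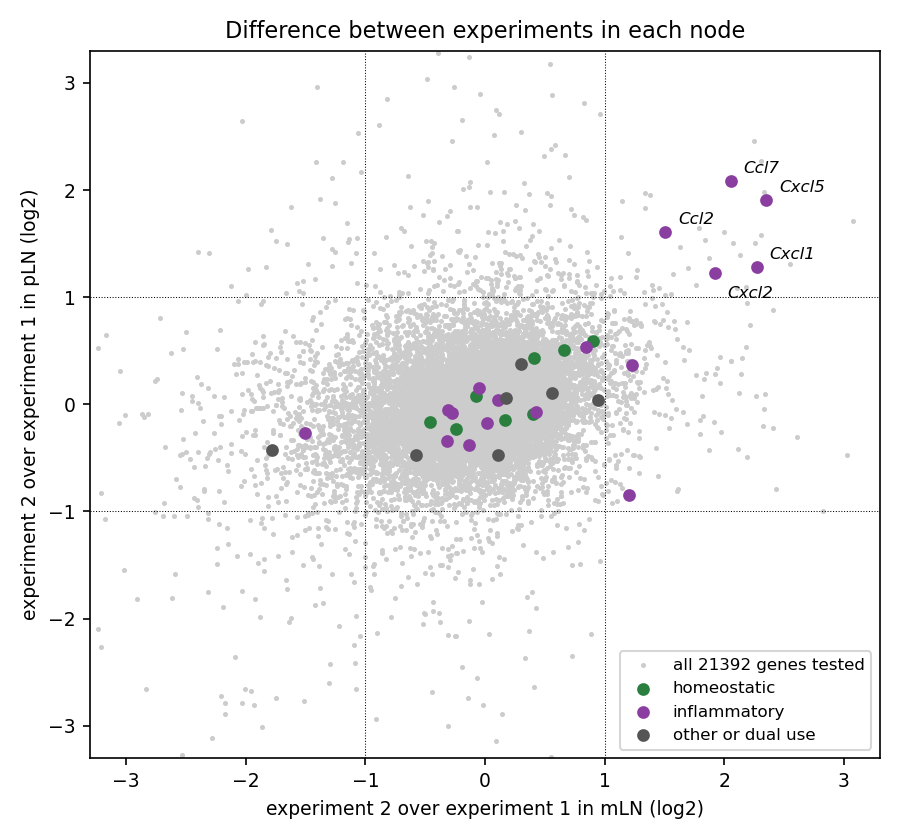
Log2 ratio of experiment 2 over experiment 1 in mLN (horizontal) and in pLN (vertical), with every gene tested in grey and the 32 ligands in colour. Dotted lines mark 2-fold, and grey points beyond the axes are not drawn. Ccl7, Cxcl5, Ccl2, Cxcl1 and Cxcl2, all inflammatory, lie above 2-fold in both nodes.

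Between experiments the neutrophil markers S100a8 and S100a9 had differences of −1.03 and −1.15. Of the matching receptor genes, Cxcr2 had −0.68 and Ccr2 −0.33. The 8 myeloid markers had a median of −0.38 and went both ways, with 0.51 for the monocyte marker Cd14, 0.13 for Csf1r and −0.76 for Lyz2. None of these differences passed, and their part in the shift of the ligands was not tested. No T cell, B cell, myeloid or neutrophil marker was 2-fold higher in experiment 2 in both nodes. Only 0.215% of all genes were, so lists this short would rarely hold one.

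**Figure D4:**
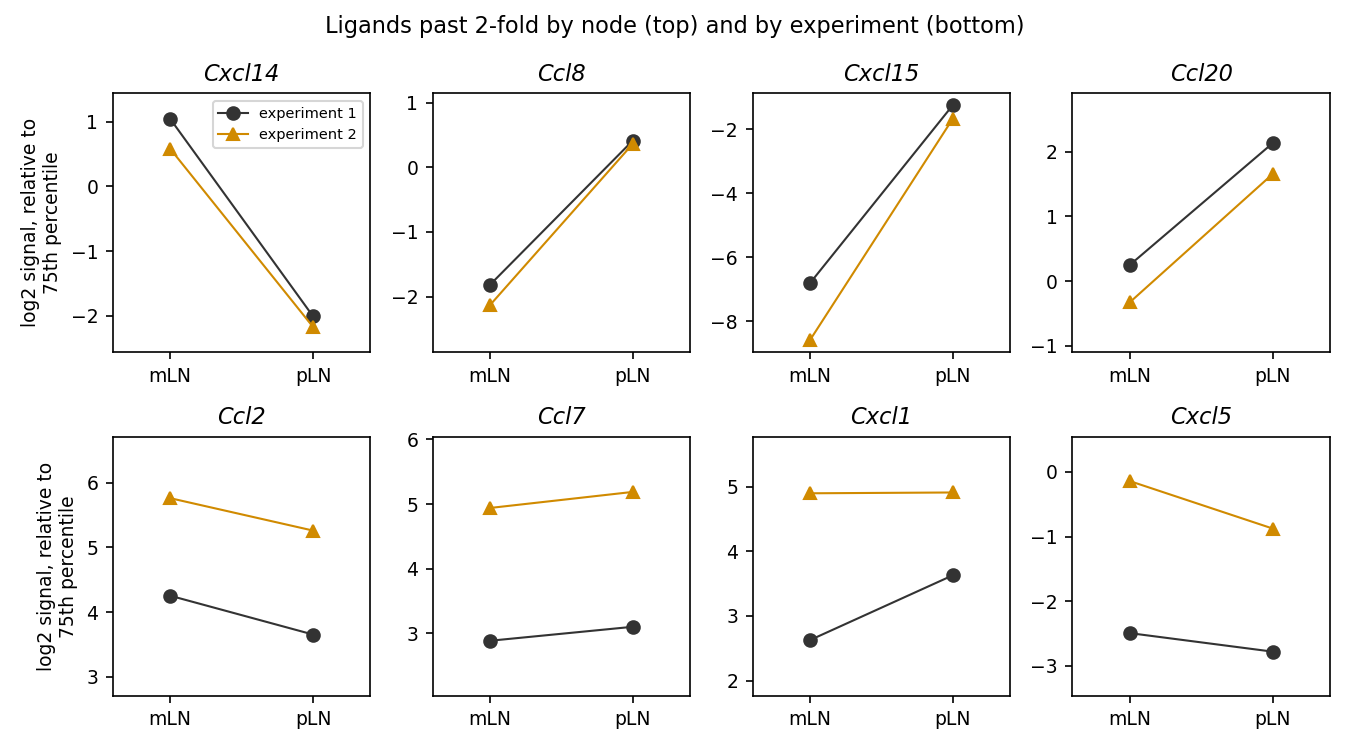
Signal of 8 ligands on each array, in log2 relative to the array's 75th percentile, with mLN left of pLN and 1 line per experiment. Each panel has its own vertical range, which is widest for Cxcl15. In the upper row, Cxcl14, Ccl8, Cxcl15 and Ccl20, the lines slope and lie close together. In the lower row, Ccl2, Ccl7, Cxcl1 and Cxcl5, 4 of the 5 ligands higher in experiment 2, they are far apart and closer to level.

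Many ligand genes sit in clusters, and the values of neighbours are given side by side. On mm8 chromosome 11 the probes of Ccl2, Ccl7, Ccl11, Ccl12 and Ccl8 lie within 79.5 kb. At one end Ccl2 and Ccl7, 10.0 kb apart, had 1.56 ± 0.15 and 2.07 ± 0.14 between experiments and 0.55 ± 0.76 and −0.23 ± 1.00 between nodes, and neither passed in either comparison. Ccl11, 25.4 kb from Ccl2, had 0.11 ± 0.14 between nodes and 0.05 ± 0.15 between experiments. At the other end Ccl8 was called between nodes, at −2.36, and had −0.18 ± 0.16 between experiments. Whether neighbours differed from each other was not tested.

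On chromosome 5 the probes of Cxcl5, Cxcl4, Cxcl15, Cxcl1 and Cxcl2 lie within 144 kb. Cxcl15, called with a node difference of −6.25, lies between Cxcl4, at −0.94 ± 0.23, and Cxcl1, at −0.51 ± 0.89, neither of them called between nodes. A second cluster on chromosome 11, with Ccl5, Ccl9, Ccl6, Ccl3 and Ccl4 within 139 kb, held no ligand called. Node differences there were −0.63, −0.78 and −0.85 for the neighbours Ccl6, Ccl3 and Ccl4, and 0.16 and 0.07 for Ccl5 and Ccl9.

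**Figure D5:**
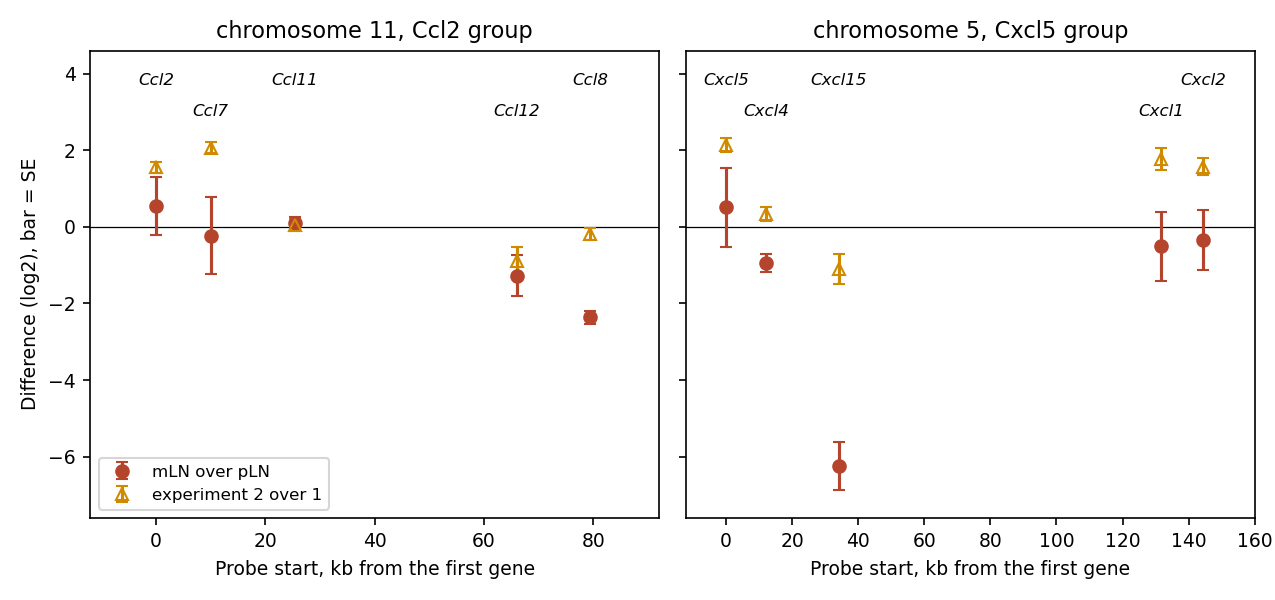
Log2 difference of mLN over pLN (filled circles) and of experiment 2 over experiment 1 (open triangles), each with its SE, against the distance of the probe from the first gene of the cluster in kb. In the left panel Ccl2 and Ccl7 lie at 1.56 and 2.07 between experiments and Ccl8 at −2.36 between nodes. In the right panel Cxcl15 lies at −6.25 between nodes, and the other 4 ligands lie between −0.94 and 0.51.

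Since Cxcl1 and Cxcl2 shifted in the same direction between experiments, the sequences before their starts were compared. This comparison was chosen after the values were seen. RefSeq promoters on GRCm38.p6, cut to the 250 bases before the start, were used for 24 of the 34 ligand genes. The promoters of Ccl2, Ccl7 and Cxcl5, the other 3 ligands with this shift, were not analysed here. Among 347 pairs of promoters of different ligand genes, searched on both strands, Cxcl1 and Cxcl2 shared the longest run, of 14 bases. The next pairs shared 13, among them pairs on different chromosomes, such as Ccl12 and Cxcl4. The run, GGGAATTTCCCTGG, occurred in 2 of 32851 promoters, those of these genes. It was taken from these 2 promoters, so its presence in both was fixed in advance and the count is no test. It includes an element of the κB type, the kind of site that NF-κB, a factor of inflammatory gene induction, is known to bind. The match is a description of letters and shows no binding. The 150 bases before the start are printed with the shared run in capitals, for Cxcl1 (chr5:90891095-90891244, plus strand) and Cxcl2 (chr5:90903749-90903898, plus strand), where the run begins 71 and 97 bases before the start:
Cxcl1 promoter: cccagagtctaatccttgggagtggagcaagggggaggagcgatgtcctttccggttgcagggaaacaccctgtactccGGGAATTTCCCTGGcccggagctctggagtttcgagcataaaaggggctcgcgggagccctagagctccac
Cxcl2 promoter: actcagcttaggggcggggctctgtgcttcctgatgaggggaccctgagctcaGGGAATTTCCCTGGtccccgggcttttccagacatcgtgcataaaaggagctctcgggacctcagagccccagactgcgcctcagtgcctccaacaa

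Of the 18 chemokine receptor genes, which leukocytes mostly express, 15 were tested and none was called between nodes. At an unadjusted p below 0.05 there were 5, where 14.7% of all genes (3140) had such a p. Only Cxcr2, the receptor of Cxcl1, Cxcl2 and Cxcl5 on neutrophils, was past 2-fold in each experiment, lower in mLN. It had −6.79 and −7.46 in mLN, against −4.85 and −5.54 in pLN, and was well above background on 1 of 2 mLN arrays (−1.93 ± 0.35, limma adjusted p = 0.122). The Ccr7 probe had −1.20 and −0.45 in mLN and −1.20 and −1.17 in pLN (0.36 ± 0.29).

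Atypical receptors bind chemokines without moving cells and shape where the ligands persist, and several are made by endothelium. All 5 were tested and none was called, with 2 at an unadjusted p below 0.05. Ackr4, which removes Ccl19, Ccl21 and Ccl25, had 5.83 and 5.16 in mLN and 6.42 and 6.31 in pLN, a difference of −0.87 ± 0.26 (limma adjusted p = 0.257). Ackr2, a scavenger of inflammatory ligands on lymphatic endothelium, had −0.73 ± 0.25, and Ackr3, a scavenger of Cxcl12, had −0.17 ± 0.26. Ackr1 had 0.19 ± 0.35 and Ccrl2 −0.24 ± 0.13. For Ackr4, Ackr2 and Ccrl2 both mLN arrays lay below both pLN arrays, where 25.0% of all genes did so. Blood endothelial markers lay lower in mLN on all arrays for 4 of 5 genes, beside the same 25.0% of all genes. The 5 summed to 62.2 and 55.7 in mLN and 87.8 and 80.4 in pLN, and none was called. Lymphatic endothelial markers went both ways, at 1.04 for Lyve1, −0.85 for Prox1 and −0.62 for Flt4, with none called. Their summed signal, 31.4 and 24.7 in mLN and 16.7 and 15.8 in pLN, came mostly from Lyve1. The part of these cells in the differences of the atypical receptors was not tested.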

How the data were processed

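The submitters hybridised RNA of 2 mLN and 2 pLN samples to 1-colour Agilent arrays. Per the file headers, the deposited intensity values are processed signals of Agilent Feature Extraction 9.5.3.1, with background and spatial trends removed within an array. Other deposited columns hold per-spot flags, coded 0 or 1. A deposited table of intensity values, scaled to a 75th percentile of 1500 and floored at 15 as found from its values, served as an alternative.

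Control spots and outlier spots were left out, spots of a probe were averaged, and log2 minus the array's 75th percentile was taken. Of 41174 probes, 19 lost all spots on an array. The entering probe with the highest mean stood for a gene. Limma 3.58.1 in R 4.3.3 (lmFit, eBayes) was fitted over 21392 genes, without a block, calling genes at a Benjamini-Hochberg adjusted p of 0.05. Of 4.35 degrees of freedom, 2.35 came from the prior. Values after ± are SE, except the stated purity. An exact permutation of 2 against 2 arrays cannot go below 0.333. Per-array values are listed by experiment, 1 then 2. The fit was tested on simulated data.

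The labels number the experiments, so a number marks a shared experiment. Deviations of the experiments in mLN and pLN correlated across genes with r = 0.246, and a fit with that block was run beside it. All arrays shared 1 slide and scan, so no effect of slide or scan could be estimated. The coordinates of probes come from the files (mm8), and promoter sequences come from RefSeq. Probes were named from a RefSeq table, 24367 by accession, 6307 by symbol and 2425 by synonym, while 8075 carry the files' own name. Ccl27 is now Ccl27a and Cxcl4 is now Pf4. A bound written "at least" raises the dimmer node's signal, where lower, to the lowest signal that still counted as well above background on that array.

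The members and lists were chosen with earlier results of these data known. Per-array values are given for ligands that passed the threshold, had ratios past 2-fold in 1 direction in both experiments, or between experiments in both nodes, were homeostatic, or were among the 10 brightest. The number of arrays limits the precision of every value.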

Additional observations from a re-analysis of the deposited data

How the results depend on the processing

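The number of genes called was 225, 441 with the variance prior following intensity, 354 with median scaling, 44 without a filter on dim probes (27586 tested) and 333 with the replicate block. With normexp background correction it was 0, and 387 when 5 spots of mLN replicate 2 with a local background over 1000 were given the array's median background, an alternative chosen after seeing the data. With 1 array left out it ranged between 0 and 190. The number of ligands called was 3, and 0 with normexp, 0 without the filter, and between 0 and 3 with 1 array left out, where it was 0 without either pLN array. It was 4, with Ccl20 added, under the trend, the replicate block and the amended normexp, and 2 on probes above background on all arrays, which drops Cxcl15. The block changed no other ligand call. Cxcl14, Ccl8 and Cxcl15 kept their direction in every setting run, and Cxcl15 ranged from −1.41 with normexp to −7.14 without mLN replicate 1. No ligand was called between experiments in any of 6 alternatives. The homeostatic median ranged between −0.062 and 0.38 with 1 array left out, and the inflammatory one between −0.73 and 0.025. The median of all ligands ranged between −0.47 and 0.052, and that of the ligands on neither list between −0.73 and −0.18 over all settings.

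Signs turned for ligands that were not called. With normexp the differences were −0.23 for Ccl11, −0.22 for Ccl19, −0.024 for Ccl21c, 0.40 for Ccl25, 1.32 for Ccl28 and −0.091 for Cxcl12, and Ccl28 had 0.061 with the amended form. With 1 array left out the ranges were −0.33 to 0.57 for Ccl19, −0.25 to 1.35 for Ccl2, −1.28 to 0.81 for Ccl7, −1.64 to 0.63 for Cxcl1, −1.02 to 0.20 for Cxcl10, −0.090 to 0.57 for Cxcl12, −0.26 to 0.14 for Cxcl13, −1.30 to 0.62 for Cxcl2 and −0.67 to 1.69 for Cxcl5. Of the causes, only the 5 spots were tested.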

Other observations

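The genes that met the rule of at least 2-fold higher in experiment 2 in both nodes were 46, of which 5 were the ligands Ccl2, Ccl7, Cxcl1, Cxcl2 and Cxcl5. The others named here were chosen after their values were seen. Ptgs2, which encodes the inducible cyclooxygenase, had log2 ratios of experiment 2 over experiment 1 of 2.30 in mLN and 2.27 in pLN. Il6, an inflammatory cytokine gene, had 2.25 in mLN and 2.46 in pLN, and Csf3, which encodes the granulocyte growth factor, had 3.08 in mLN and 1.71 in pLN. The immediate early genes Atf3 and Fosb had 2.00 and 2.31 in mLN and 1.61 and 1.58 in pLN. Nfkbiz, an inducible regulator of NF-κB, had 2.55 in mLN and 1.31 in pLN. None passed between experiments with limma, and 1 array stands behind each value in a node.

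Cxcl17, a mucosal chemokine, is on the array under a clone name and so lay outside the rule for the members. It had −3.20 and −4.55 in mLN and −2.65 and −2.93 in pLN, a difference of −1.08 ± 0.49 (limma adjusted p = 0.428). Ppbp, the platelet ligand of Cxcr2, had −3.94 and −5.98 in mLN and −3.27 and −4.03 in pLN, a difference of −1.31 ± 0.75 (limma adjusted p = 0.537). Neither passed.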
